A study of Mus musculus with 2 samples.

Results

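The genes described here are 9 complement genes that stromal, fat and myeloid cells are known to express: C1qa, C1qb, C1qc, C2, C3, C4b, C7, Cfd and Serping1. They were chosen by name from the 31053 genes of each matrix, and all 9 were present in both. Their unique molecular identifier (UMI) counts, each of which stands for 1 captured RNA molecule, were summed over the nuclei of each marker-defined cell class in each library. The levels are given as counts per 1000000 UMIs of that class in that library (CPM).

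The study asked how loss of Lexis, a long noncoding RNA, bears on the cells and the heat-producing capacity of white fat, and profiled single nuclei of inguinal white fat (iWAT), a depot under the skin, for it. Male mice on a Western diet gave 2 libraries, of which 1 carries the genotype Lexis WT and the other Lexis KO, each pooled from 3 mice after the lymph node had been taken out. Their age is not given in the labels. By the study's methods, the mice of both groups carry a floxed Lexis allele, and the KO mice also carry Cre under the adiponectin promoter, which is active in adipocytes. The deletion would therefore fall in adipocytes, and the stromal, myeloid and other cells described below would keep the gene.

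For both libraries the genotype in the sample label contradicts the genotype in the file name, and the protocol text gives the same group name for both. Lexis was not analysed here, so the targeted gene cannot check the labels. The text therefore speaks of the WT-labelled and the KO-labelled library, and a direction below means no more than these labels do. With 1 library per genotype there is no replicate. No test across samples is possible, and each interval below is a 95% interval that covers counting error only. The 3 mice of a pool cannot be told apart, and library, depth and genotype cannot be told apart either.

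The libraries stood far apart. After filtering, 3503 nuclei with a median of 1194.0 UMIs were kept in the WT-labelled library and 2852 with a median of 3876.5 UMIs in the KO-labelled library, out of 5000 barcodes each. Lymphocytes were 57.1% of nuclei in the WT-labelled library and 3.72% in the KO-labelled library, and 12 barcodes were shared. Clusters named from markers resemble a cell type and are called by its name for short: adipogenic stem and precursor cells with fibroblasts (ASPC, 291 nuclei in the WT-labelled library and 786 in the KO-labelled library), adipocytes (422 and 895), myeloid cells (439 and 821), endothelial cells (93 and 122) and lymphocytes (1999 and 106). The 12 markers of ASPC were all detected in ASPC nuclei, with a summed level of 29100 and 31285 CPM, and the 11 adipocyte markers summed to 9783 and 22154 CPM in adipocyte nuclei. No complement gene served as a marker or entered the clustering. A cluster of 154 nuclei, led by Pcdh15, Ccl19 and Ltf and found in the WT-labelled library alone, passed as many markers of lymphoid stroma as of mural cells and was left unnamed. So was a cluster of 95 and 26 nuclei led by Neil3, Ankle1 and Top2a, in which myeloid and dividing-cell markers passed together.

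Complement is a cascade of blood and tissue proteins that tags microbes, immune complexes and dying cells. In the classical pathway, the C1q molecule, built of the products of C1qa, C1qb and C1qc, binds a target and activates the proteases C1r and C1s, which cleave C4 and C2. In the alternative pathway, factor D (encoded by Cfd, long known as adipsin for its high output from fat) cleaves factor B. Both routes lead to cleavage of C3, the central protein, and on to the membrane attack complex, which C7 helps to anchor in the target membrane. C1 inhibitor, the product of Serping1, holds C1r and C1s in check.

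The 9 genes lie on 5 chromosomes of the mouse genome (GRCm38.p6). The 3 C1q genes are neighbours, C1qb at chr4:136880126-136886200, C1qc at chr4:136889801-136892936 and C1qa at chr4:136895916-136898844. C4b at chr17:34728139-34743902 and C2 at chr17:34862602-34882100 lie in the same stretch of chromosome 17, and C3 is farther along it at chr17:57203967-57228136. C7 lies at chr15:4987750-5063773, Cfd at chr10:79890853-79892655 and Serping1 at chr2:84765360-84775444. Each position spans the whole gene, introns and untranslated ends included. C3 overlaps Mir6978 and C7 overlaps Gm25652. C4b has a near-identical neighbour, C4a, which was looked for and is not in the matrices under that name. How reads shared by the pair were counted is not given in the sources used here, so the counts of C4b are uncertain in that respect.

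Promoter sequence was at hand for 5 of the 9 genes, from RefSeq on GRCm38.p6. The 250 bases before the start of C1qb (chr4:136886201-136886450, minus strand) and of C1qc (chr4:136892915-136893164, minus strand) are shown because these neighbours were high in the same class in both libraries. The start is that given with the RefSeq promoter sequence, which for C1qc lies inside the gene span given above, so this window reaches into the span. Capitals mark GAGGAA, the core that the myeloid factor PU.1 and other ETS factors bind, or its complement on the other strand.
C1qb: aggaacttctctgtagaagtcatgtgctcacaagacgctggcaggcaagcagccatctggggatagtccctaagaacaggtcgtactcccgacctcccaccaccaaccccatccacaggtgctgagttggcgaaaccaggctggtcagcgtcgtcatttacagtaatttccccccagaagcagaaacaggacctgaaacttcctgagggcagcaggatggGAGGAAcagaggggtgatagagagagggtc
C1qc: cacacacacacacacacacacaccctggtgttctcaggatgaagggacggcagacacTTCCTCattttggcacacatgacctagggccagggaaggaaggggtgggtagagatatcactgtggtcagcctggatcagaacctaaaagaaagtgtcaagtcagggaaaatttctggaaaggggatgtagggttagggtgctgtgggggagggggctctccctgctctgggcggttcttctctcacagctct
GAGGAA, searched on both strands, stood 1 time in each, 30 bases before the start of C1qb and 193 bases before the start of C1qc. It was present in 23.1% of 27025 mouse promoters of the same length, so a match is common.

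The 250 bases before C3 (chr17:57228137-57228386, minus strand) and C7 (chr15:5063774-5064023, minus strand) are shown because both genes were high in ASPC nuclei, and C7 had a ratio between the libraries above 2 there while C3 did not. Capitals mark TTNNGNAA, a loose form of the site of C/EBP factors, on either strand.
C3: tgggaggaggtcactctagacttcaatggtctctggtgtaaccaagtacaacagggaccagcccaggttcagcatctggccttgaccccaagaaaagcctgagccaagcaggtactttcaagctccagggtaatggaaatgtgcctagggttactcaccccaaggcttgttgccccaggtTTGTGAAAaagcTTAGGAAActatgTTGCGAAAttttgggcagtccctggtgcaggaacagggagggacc
C7: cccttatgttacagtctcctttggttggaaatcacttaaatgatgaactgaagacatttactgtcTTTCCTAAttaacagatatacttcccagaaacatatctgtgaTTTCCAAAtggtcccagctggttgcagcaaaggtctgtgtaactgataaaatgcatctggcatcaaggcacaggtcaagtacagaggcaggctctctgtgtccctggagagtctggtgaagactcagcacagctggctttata
C3 held 4 matches within 70 bases of its start, of which 2 are the same bases read on both strands, and C7 held 2 matches, 185 and 143 bases before its start. The motif was present in 36.9% of promoters. It also stood 1 time in the C1qc window, 81 bases before the start, and not in that of C1qb. The Cfd promoter held no match to GAGGAA, to TTNNGNAA, to the nuclear receptor motif AGGTCA (13.8% of promoters) or to TATAAA (12.97%), which says only that these letters are not in those 250 bases. AGGTCA stood 1 time in each of the C1qc, C3 and C7 windows, and TATAAA 1 time in that of C7. The 4 motifs were chosen after the levels were known, and a match is a description of sequence, not a binding site.

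Droplets also capture free RNA from broken cells, so each gene was first read in lymphocytes, which are not known as a source of C1q, C7 or factor D. In the libraries labelled WT and KO respectively, C1qa stood at 72.7 and 106 CPM in lymphocyte nuclei, C1qb at 80.3 and 79.8 CPM, and C1qc at 66.0 and 35.5 CPM. The other levels there were 6.31 and 4.44 CPM for C2, 118 and 75.4 CPM for C3, 57.6 and 71.0 CPM for C4b, 2.94 and 4.44 CPM for C7, and 53.8 and 48.8 CPM for Serping1. Cfd stood at 132 and 461 CPM. The level in the KO-labelled library rests on 106 nuclei and few counts (1 UMI each for C2 and C7, 8 for C1qc, 104 for Cfd). Of these nuclei, 94 were in a cluster led by Klra8, Dach2 and Klra4, in which 4 mast cell markers passed beside 11 of lymphocytes. The summed mast cell markers of lymphocyte nuclei were 45.4 CPM in the WT-labelled library and 568 CPM in the KO-labelled library, so the make-up of this reference differed. A level in another class whose interval did not clear the lymphocyte interval of its library, in CPM and in UMIs per nucleus, is read below as background. By that rule, the C1q genes stood above background in myeloid nuclei of both libraries, C2, C3, C7 and Serping1 in ASPC nuclei, C4b in ASPC, adipocyte and myeloid nuclei, and Cfd in adipocyte nuclei.

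**Figure D1:**
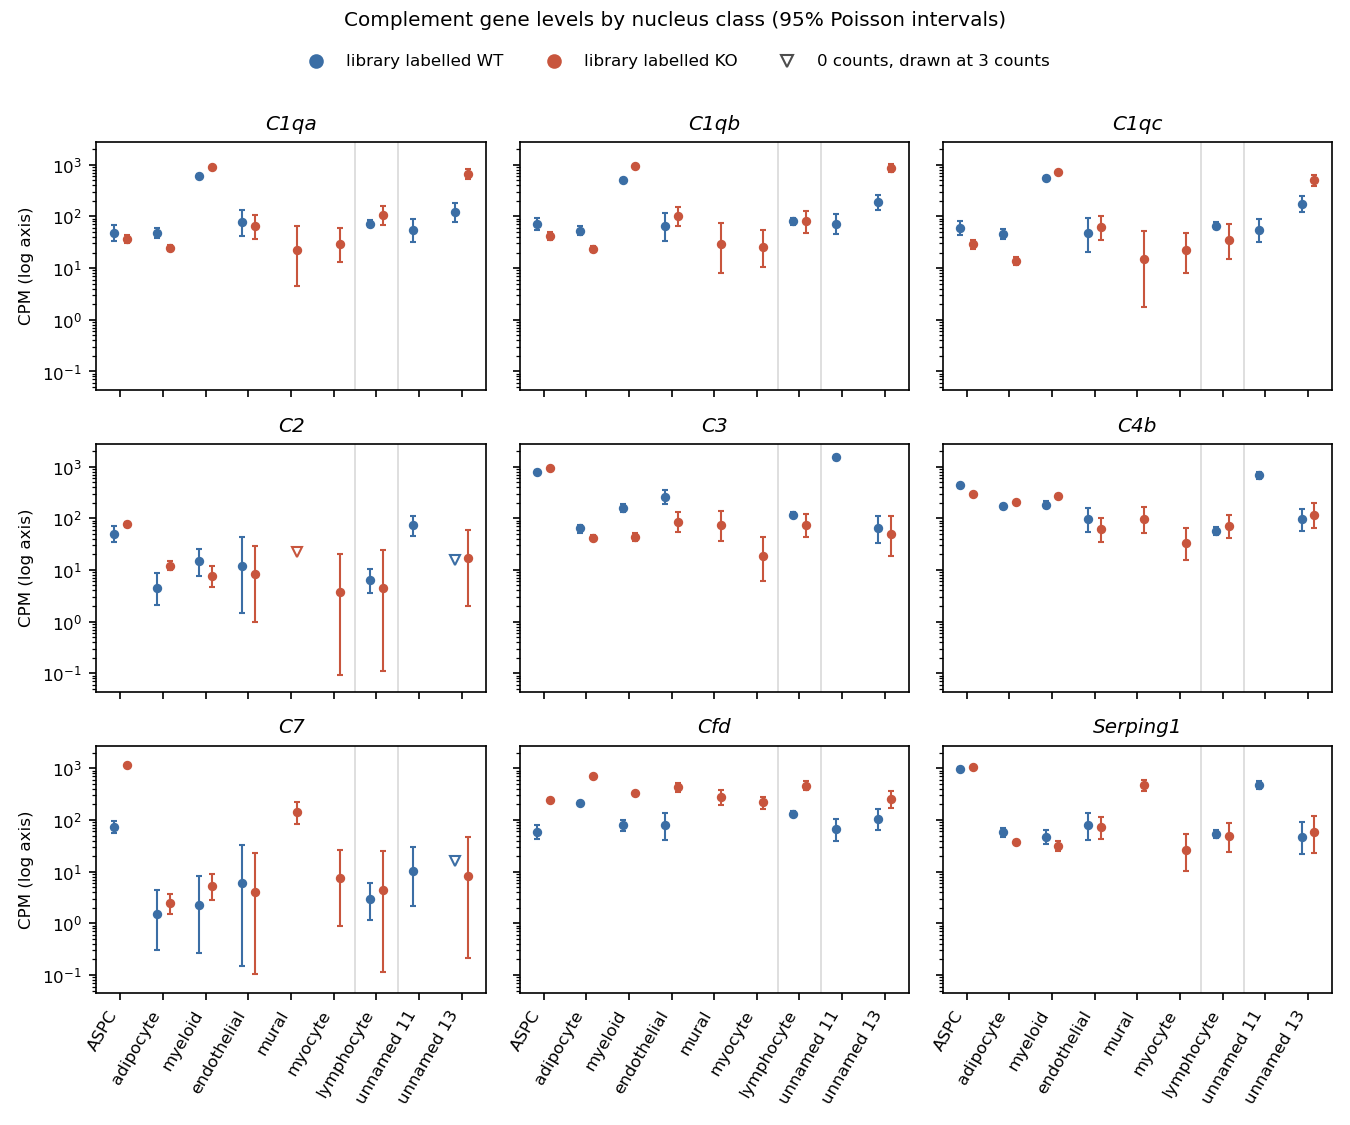
Level of each of the 9 complement genes by cell class and library, in CPM on a log axis, with exact Poisson 95% intervals. Open triangles mark a count of 0 and are drawn at the level of 3 counts, and only classes of at least 20 nuclei are drawn. The C1q genes peak in myeloid nuclei, C3 and Serping1 in stromal nuclei, and C7 reaches 1169.6 CPM in ASPC nuclei of the KO-labelled library against 73.5 CPM in the WT-labelled library.

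The C1q genes belonged to myeloid nuclei. Of the WT-labelled UMIs, 60.1% of those of C1qa, 52.3% of those of C1qb and 58.3% of those of C1qc lay in the 12.5% of nuclei that were myeloid. In the KO-labelled library the myeloid share was 83.6%, 83.3% and 86.0%, in 28.8% of nuclei. C1qa, the A chain of C1q, stood at 599 CPM (534 UMIs) in myeloid nuclei of the WT-labelled library and at 887 CPM (2352 UMIs) in those of the KO-labelled library, a ratio of 1.48 (1.35 to 1.63). C1qb, the B chain, stood at 512 CPM (457 UMIs) and 943 CPM (2499 UMIs), a ratio of 1.84 (1.66 to 2.04). C1qc, the C chain, stood at 546 CPM (487 UMIs) and 711 CPM (1885 UMIs), a ratio of 1.30 (1.18 to 1.44). All 3 were higher in the KO-labelled library by this division of nuclei, beyond counting error, but with nuclei classed by their own marker UMIs the ratio of C1qc was 0.9505 and that of C1qa 1.11. The summed level of the 10 macrophage markers in myeloid nuclei moved the same way, from 4875 to 12218 CPM, while that of the 9 B cell markers went from 1364 to 489 CPM and that of the 12 T and NK cell markers from 675 to 10.9 CPM. Their part in the C1q ratios was not tested.

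Depth differed, so the share of myeloid nuclei with a C1q UMI was taken after thinning each nucleus to 1000 UMIs, which left out 90 myeloid nuclei of the WT-labelled library and 51 of the KO-labelled library. C1qa was then found in 34.1% (29.1 to 39.3) of myeloid nuclei in the WT-labelled library and in 43.8% (40.2 to 47.4) in the KO-labelled library. C1qb was found in 31.8% and 45.8%, and C1qc in 36.1% and 39.5%. Without thinning, C1qa was found in 44.0% and 64.7%. In lymphocytes, thinned alike, C1qa was found in 7.34% and in 10.8% of nuclei, and their median depths before thinning were 998 and 2048 UMIs against 1539 and 2836 UMIs for myeloid nuclei. The 3 genes tended to be found in the same nuclei. In the WT-labelled library, 52 of 349 myeloid nuclei held all 3, against 13.7 nuclei from the product of the 3 shares, and in the KO-labelled library 149 of 770 held all 3, against 61.0. Among ASPC, adipocyte and lymphocyte nuclei, no class of either library had more than 3 nuclei with all 3 at 1000 UMIs. Without thinning, all 3 were found in 16 of 422 adipocyte nuclei of the WT-labelled library and in 13 of 895 of the KO-labelled library, against 0.881 and 1.94 nuclei from the product of the shares, and in 5 and 2 ASPC nuclei.

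The myeloid nuclei of the libraries fell into different clusters, which have to be read beside the ratios above. Of the nuclei in the WT-labelled library, 312 were in a cluster led by Clec4n, Timd4 and 2900052N01Rik and 104 in a cluster led by Il12b, Ccl22 and Clec9a. Of those in the KO-labelled library, 519 were in a cluster led by Gm30489, Ms4a4a and Kctd16, absent from the WT-labelled library, and 248 in a cluster led by Dcstamp, Gm5150 and Gm47507. The summed C1q level was 3224 CPM in the Gm30489 cluster, 2366 CPM in the WT nuclei of the Clec4n cluster, 1375 CPM in the KO nuclei of the Dcstamp cluster and 471 CPM in the WT nuclei of the Il12b cluster. The Il12b cluster, in which 5 dendritic cell markers passed (Flt3, Zbtb46, Xcr1, Clec9a and Ccr7), was thus the lowest of these in C1q.

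Within clusters that held nuclei of both libraries, the direction of the C1q ratios was not the same throughout. In the Clec4n cluster C1qa went from 866 CPM to 2165 CPM, a ratio of 2.5, C1qb from 724 to 2124 CPM, a ratio of 2.93, and C1qc from 776 to 1749 CPM, a ratio of 2.26, but the KO-labelled library gave only 20 nuclei there. In the Il12b cluster C1qb had a ratio of 0.404 (0.140 to 0.956) and C1qc of 0.369 (0.129 to 0.867), both lower in the KO-labelled library on 6 UMIs each, while that of C1qa, 0.503 (0.205 to 1.08), was within counting error. The levels of the KO-labelled library there, 80.2, 60.1 and 60.1 CPM for C1qa, C1qb and C1qc, did not clear its lymphocyte level and are read as background. In the unnamed Neil3 cluster C1qa went from 122 to 660 CPM, C1qb from 190 to 869 CPM and C1qc from 174 to 501 CPM. The C1qa level of the WT-labelled library there did not clear its lymphocyte level and is read as background. The make-up of that cluster differed as well. Its summed macrophage markers went from 1558.5 to 9446 CPM, its B cell markers from 3450 to 234 CPM and its T and NK cell markers from 1595 to 184 CPM. Their part in the C1q levels of the cluster was not tested. In the Dcstamp cluster all 3 were higher in the KO-labelled library, C1qa with a ratio of 9.68 (2.66 to 80.3), C1qb with 3.84 (1.94 to 8.94) and C1qc with 3.04 (1.29 to 9.43). The WT-labelled library gave 23 nuclei there with 2, 8 and 5 UMIs, and none of these levels cleared its lymphocyte level. Comparing the same cluster across libraries was decided after the clusters had been seen.

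The mix of the 3 chains also differed between myeloid clusters of the same library. In the KO-labelled library, C1qb made up 47.1% (44.2 to 49.96) of C1q UMIs in the Dcstamp cluster and 35.01% (33.7 to 36.3) in the Gm30489 cluster, and the intervals do not overlap. Over all myeloid nuclei, C1qb was 30.9% of C1q UMIs in the WT-labelled library and 37.1% in the KO-labelled library, and C1qc was 32.9% and 28.0%. In lymphocytes, the level taken here for free RNA, C1qb was 36.7% of 521 C1q UMIs and 36.0% of 50.

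**Figure D2:**
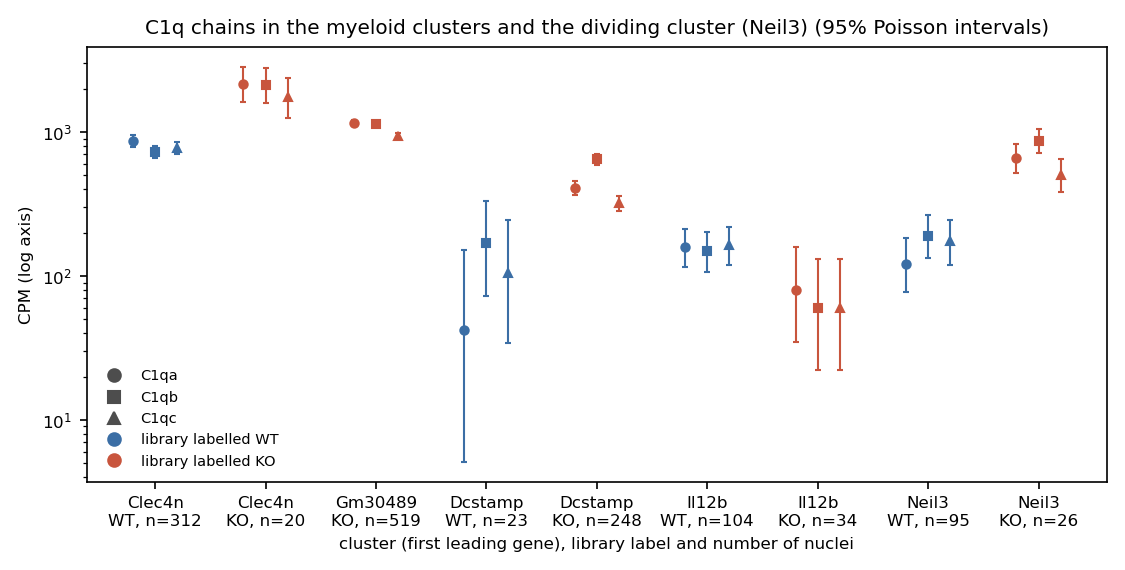
Level of C1qa, C1qb and C1qc in each myeloid cluster and in the unnamed Neil3 cluster, by library, in CPM on a log axis with exact Poisson 95% intervals. Clusters are named by their leading genes. The Clec4n and Gm30489 clusters are highest and the Il12b cluster is lowest in the KO-labelled library, where C1qb and C1qc both stand at 60.1 CPM.

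Outside myeloid nuclei and the Neil3 cluster, the C1q levels lay near the lymphocyte level or below it. In adipocyte nuclei C1qa went from 47.8 to 24.2 CPM, C1qb from 52.8 to 23.7 CPM and C1qc from 45.8 to 14.0 CPM. All 6 values are under the lymphocyte level of their library in CPM, and by the rule above they are read as background. Adipocyte nuclei were deeper, and per nucleus they held more C1q UMIs than lymphocytes did, 2.6, 2.6 and 2.75 times as many for C1qa, C1qb and C1qc in the WT-labelled library and 1.04, 1.35 and 1.79 times in the KO-labelled library, so the reading as background rests on the CPM scale.

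C2 and C4b encode the proteins that C1s cleaves to build the classical C3 convertase. C2 was a low gene that stood out in stroma. In ASPC nuclei it stood at 49.9 CPM (36 UMIs) in the WT-labelled library and 76.0 CPM (252 UMIs) in the KO-labelled library, a ratio of 1.52 (1.07 to 2.22). With mitochondrial genes and Malat1 left out of the totals, ratios in ASPC nuclei shift by -0.27 on the log2 scale. After the correction for intronic length given below, the ratio of C2 was 1.35. The first step takes the lower limit of 1.07 below 1, so the higher call is lost under it. The intronic length used for C2, 31790 bases, is longer than its gene span of 19499 bases. Its bin and its corrected ratio are therefore unsure, and whether the call is lost under the second step is not read from them. ASPC held 37.1% of C2 UMIs in the WT-labelled library and 65.8% in the KO-labelled library. The unnamed Pcdh15 cluster of the WT-labelled library stood at 72.7 CPM (21 UMIs, interval 45.0 to 111), above background, and held 21.6% of its C2 UMIs. In adipocyte nuclei C2 stood at 4.53 CPM (9 UMIs) and at 12.1 CPM (105 UMIs), a ratio of 2.68 (1.36 to 6.02), and neither level cleared the lymphocyte interval of its library, which in the KO-labelled library rests on 1 UMI. Thinned to 1000 UMIs, 5.14% of ASPC nuclei held C2 in the WT-labelled library and 3.93% in the KO-labelled library, so the share and the CPM do not point the same way and no order is read from the share.

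C4b was above background in 3 classes of both libraries, and its ratio lay on different sides of 1 by class. In ASPC nuclei it was lower in the KO-labelled library, 438 CPM (316 UMIs) against 295 CPM (978 UMIs), a ratio of 0.673 (0.592 to 0.766). In adipocyte nuclei it was higher, 209.7 CPM (1817 UMIs) against 170 CPM (337 UMIs) in the WT-labelled library, a ratio of 1.24 (1.10 to 1.39). In myeloid nuclei it went from 182 CPM (162 UMIs) to 270 CPM (716 UMIs), a ratio of 1.49 (1.25 to 1.77). With mitochondrial genes and Malat1 left out of the totals, the adipocyte ratio was 1.04 (0.926 to 1.17), within counting error, and with nuclei classed by their own marker UMIs the myeloid ratio was 1.20 (0.994 to 1.46), within it as well. In the KO-labelled library, adipocytes held 50.8% of C4b UMIs, ASPC 27.3% and myeloid nuclei 20%. The shares in the WT-labelled library were 28.6% for adipocytes, 26.8% for ASPC and 13.7% for myeloid nuclei. The unnamed Pcdh15 cluster, found only in that library, held 16.4% and had its highest C4b level, 671 CPM (194 UMIs). Within myeloid nuclei of the KO-labelled library, C4b stood at 379 CPM in the Gm30489 cluster and at 70.3 CPM in the Dcstamp cluster, where it was at the lymphocyte level of 71.0 CPM. Thinned to 1000 UMIs, 25.3% of ASPC nuclei held C4b in the WT-labelled library and 18.5% in the KO-labelled library, and 14.0% and 21.4% of myeloid nuclei did. The shares of adipocyte nuclei lay closer together, so the higher call of adipocytes is not read from the shares.

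C3, the protein on which all routes of activation meet, was a stromal gene in both libraries. ASPC nuclei held 788 CPM (568 UMIs) in the WT-labelled library and 929 CPM (3079 UMIs) in the KO-labelled library, a ratio of 1.18 (1.08 to 1.29). This direction turned with the scaling, the ratio being 0.980 when mitochondrial genes and Malat1 were left out of the totals, and it turned to 0.936 when the unnamed Pcdh15 cluster was joined to ASPC. That cluster, found only in the WT-labelled library, had the highest C3 level of any class, 1502 CPM (434 UMIs), and held 27.0% of the C3 UMIs of its library. Thinned to 1000 UMIs, 39.9% (33.8 to 46.2) and 39.2% (35.7 to 42.8) of ASPC nuclei held C3. Without thinning the shares were 51.9% and 63.5%. C3 thus did not differ between the libraries in ASPC nuclei in a way that survived these choices.

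C3 was lower in the KO-labelled library in myeloid, endothelial and adipocyte nuclei, while its lymphocyte ratio of 0.641 (0.368 to 1.04) was within counting error. In myeloid nuclei it stood at 159 CPM (142 UMIs) and 43.8 CPM (116 UMIs), a ratio of 0.275 (0.213 to 0.354), and in endothelial nuclei at 259 CPM (43 UMIs) and 85.7 CPM (21 UMIs), a ratio of 0.331 (0.187 to 0.570). Only the levels of the WT-labelled library cleared the lymphocyte level in these classes. The summed lymphoid stroma markers went the same way, from 217 to 11.3 CPM in myeloid nuclei and from 825 to 188 CPM in endothelial nuclei. The ASPC markers went from 1444 to 884 CPM in myeloid nuclei. The part of these markers in the C3 ratios was not tested. The adipocyte levels, 63.4 and 41.9 CPM (ratio 0.661), cleared it in neither library. In the Il12b cluster alone, C3 went from 166 to 30.1 CPM, a ratio of 0.181 on 47 and 3 UMIs.

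C7, which joins the terminal complex, had the largest share of its UMIs in a single class of the 9 genes, in either library, and the largest ratio in ASPC nuclei. It stood at 73.5 CPM (53 UMIs, interval 55.1 to 96.2) in the WT-labelled library and at 1169.6 CPM (3878 UMIs, interval 1133 to 1207) in the KO-labelled library, a ratio of 15.9 (12.1 to 21.3), or 25.1 without 4 nuclei of the WT-labelled library that clustered with those of the other. ASPC nuclei held 75.7% of C7 UMIs in the WT-labelled library and 98.5% in the KO-labelled library. Thinned to 1000 UMIs, 3.95% (1.91 to 7.15) of ASPC nuclei held a C7 UMI in the WT-labelled library and 31.5% (28.2 to 34.9) in the KO-labelled library, and without thinning 6.87% and 43.3% did. The lymphocyte share at 1000 UMIs was 0.402% and 1.08%. In the WT-labelled library, 3 nuclei held 21 of the 53 UMIs. The 3 richest nuclei of the KO-labelled library held 551 of 3878 UMIs, or 14.2%, and 1 nucleus had 217. Mural nuclei of the KO-labelled library had 140 CPM (19 UMIs) of C7, above background, and no other class did.

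Long genes as a whole read higher in the KO-labelled library, and C7 has long introns. Genes were sorted into 10 bins by intronic length, and the median log2 ratio in ASPC nuclei was 0.59 for the bin of C7 and -0.61 for that of C1qa, C1qc and Cfd. After subtracting the median of its bin, the ratio of C7 was 10.6. The same step gave 6.23 for Cfd in adipocytes and 2.44, 2.55 and 2.14 for C1qa, C1qb and C1qc in myeloid nuclei. Whether reads in introns were counted is not given in the sources used here, and the part of gene length in these ratios was not tested further.

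Serping1 encodes C1 inhibitor. In ASPC nuclei it stood at 981 CPM (707 UMIs) in the WT-labelled library and 1050.5 CPM (3483 UMIs) in the KO-labelled library, a ratio of 1.07 (0.988 to 1.16), within counting error. This rests on the division and scaling used. The ratio was 0.890 (0.821 to 0.967) with mitochondrial genes and Malat1 left out of the totals, 1.25 (1.16 to 1.35) with the Pcdh15 cluster joined to ASPC, 1.31 (1.21 to 1.42) after correction for intronic length, 1.39 (1.27 to 1.53) without the same 4 nuclei and 1.40 (1.30 to 1.52) with nuclei classed by their own marker UMIs, so neither a direction nor its absence is read from it. ASPC held 61.2% of Serping1 UMIs in the WT-labelled library and 87.1% in the KO-labelled library. Thinned to 1000 UMIs, 38.7% and 48.8% of ASPC nuclei held Serping1, against 4.22% and 3.23% of lymphocytes. Without thinning 59.8% and 76.6% of ASPC nuclei did. The unnamed Pcdh15 cluster had 481 CPM (139 UMIs), and the mural nuclei of the KO-labelled library 466 CPM (63 UMIs). Serping1 and C3 were found together in 56 of 253 ASPC nuclei of the WT-labelled library, against 39.1 from the product of their shares, and in 197 of 763 of the KO-labelled library, against 145.8.

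As with the myeloid nuclei, the ASPC nuclei of the libraries were held by different clusters. In the WT-labelled library, 287 of 291 were in a cluster led by Adm, Timp1 and Lox and the other 4 in a cluster led by Ccbe1, Gpr39 and Pde11a, and in the KO-labelled library 383 were in the Ccbe1 cluster and 374 in a cluster led by Gm12381, Sema3e and Sntg1. A finer division, chosen after the levels were known, split these further. In the KO-labelled library, 58 nuclei led by Gria4, L3mbtl4 and Sfrp2 had 4939 CPM of C7, and 86.2% (74.6 to 93.9) of them held a C7 UMI at 1000 UMIs. The same 58 nuclei had 2991 CPM of Serping1, 1936 CPM of C3, 885 CPM of C4b and 423 CPM of C2, for each of these genes the highest level among the finer clusters of at least 20 nuclei in a library. They held 179 of the 252 C2 UMIs and 2092 of the 3878 C7 UMIs of the class. The 374 nuclei led by Gm12381 had 857 CPM of C7, 720 CPM of Serping1, 593 CPM of C3, 177 CPM of C4b and 13.8 CPM of C2. The 326 nuclei led by Pde11a, Shisa6 and Chrm3 had 454 CPM of C7, 738 CPM of Serping1, 821 CPM of C3, 199.9 CPM of C4b and 33.5 CPM of C2.

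In the WT-labelled library the finer division gave 153 nuclei led by Isg15, Timp1 and Ssc5d and 133 nuclei led by Edn1, Sbsn and Anxa3, and it put 4 nuclei in the Gria4 cluster and 1 in the Pde11a cluster. The Isg15 cluster had 65.6 CPM of C7 (31 UMIs), 571 CPM of C3, 675 CPM of Serping1, 399.9 CPM of C4b and 55.0 CPM of C2. The Edn1 cluster had 4.77 CPM of C7 (1 UMI), 1082 CPM of C3, 906 CPM of Serping1, 396 CPM of C4b and 14.3 CPM of C2. C3 was therefore higher in the Edn1 cluster and C7 in the Isg15 cluster, while the intervals of C4b overlapped. The C7 levels of the Isg15 and Edn1 clusters lay below those of the 3 clusters of the KO-labelled library, with no overlap of intervals. The WT-labelled library was not low in C7 throughout. Its 4 nuclei in the Gria4 cluster, the same number of nuclei and UMIs as in the Ccbe1 cluster of the coarser division, held 21 of its 53 C7 UMIs in ASPC, or 620 CPM (383 to 947), and 188 of its 707 Serping1 UMIs, or 5546 CPM. Against them the ratio of C7 was 7.97 (5.20 to 12.9) in the Gria4 cluster and 2.24 (1.46 to 3.63) in the Ccbe1 cluster, and that of Serping1 was 0.539 and 0.218. Without these 4 nuclei the ratio over ASPC nuclei was 25.1 (17.8 to 36.8) for C7 and 1.39 (1.27 to 1.53) for Serping1, so 4 nuclei moved the ratio of C7 by more than 1.5 times and set whether that of Serping1 was within counting error. Leaving them out was decided after the levels were known.

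Within the Adm cluster, the ASPC cluster with at least 20 nuclei of each library, the ratios were different again. C7 stood at 46.6 CPM (32 UMIs) in 287 nuclei of the WT-labelled library and at 36.6 CPM (2 UMIs) in 29 nuclei of the KO-labelled library, a ratio of 0.786 that was within counting error. C3 went from 742 to 3828 CPM, a ratio of 5.16, Serping1 from 755 to 2656 CPM, a ratio of 3.52, and C4b from 400.3 to 1172 CPM, a ratio of 2.93. The direction of C4b there is opposite to that over all ASPC nuclei. C7 was thus lower in the Adm cluster than in the Ccbe1 cluster in both libraries. This rests on 2 UMIs of the KO-labelled library in the former and on 4 nuclei of the WT-labelled library in the latter. The part of cluster make-up in the C7 ratio was not tested.

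**Figure D3:**
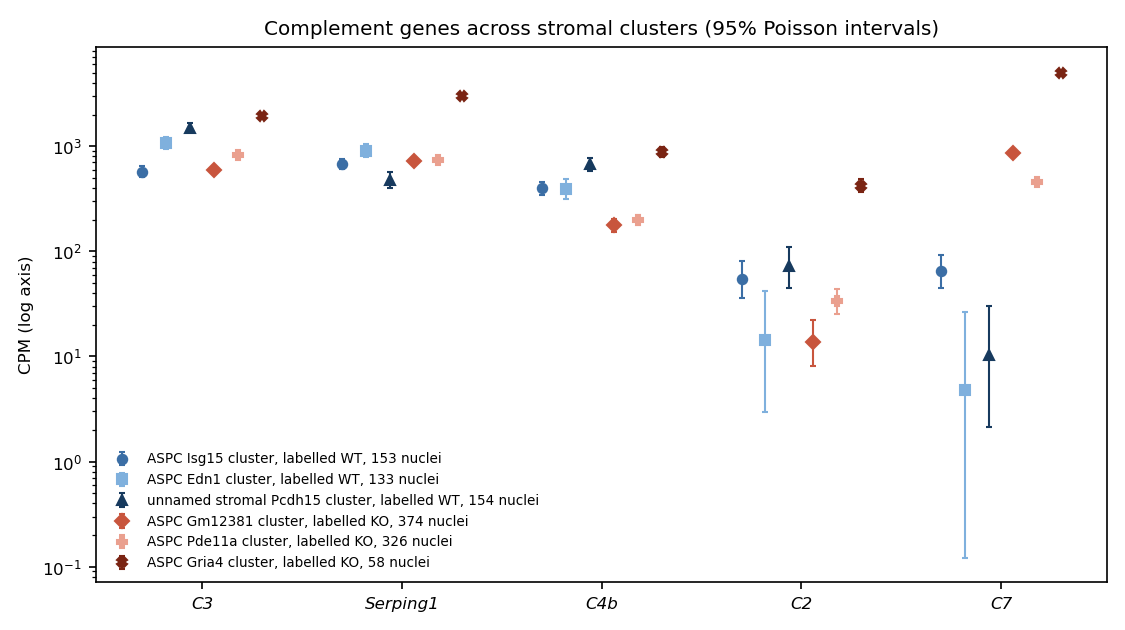
Level of C3, Serping1, C4b, C2 and C7 in the finer stromal clusters, each named by its leading genes and library, in CPM on a log axis with exact Poisson 95% intervals. C7 runs from 4.77 CPM in the Edn1 cluster of the WT-labelled library to 4939 CPM in the Gria4 cluster of the KO-labelled library, while C3 stays between 571 and 1936 CPM in all 6 clusters.

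Cfd, the adipsin gene, is a secreted product of mature fat cells. In adipocyte nuclei it stood at 215 CPM (428 UMIs) in the WT-labelled library and 707 CPM (6127 UMIs) in the KO-labelled library, a ratio of 3.28 (2.98 to 3.63). Cfd was, however, higher in the KO-labelled library in every class that could be compared. It went from 58.3 to 246 CPM in ASPC nuclei (ratio 4.22), from 79.6 to 327 CPM in myeloid nuclei (4.11), from 78.3 to 429 CPM in endothelial nuclei (5.47) and from 132 to 461 CPM in lymphocytes (3.49, interval 2.77 to 4.38). The interval of the lymphocyte ratio overlaps that of the adipocyte ratio. The adipocyte level was 1.63 times the lymphocyte level in the WT-labelled library and 1.53 times in the KO-labelled library. Summed over the 11 adipocyte markers, the level in lymphocytes went from 657 to 1251 CPM, and the part of free RNA in the Cfd ratio of adipocytes was not tested.

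The shares had the same direction. At 1000 UMIs Cfd was found in 18.9% (15.3 to 23.1) and 45.3% (42.0 to 48.6) of adipocyte nuclei, and in 10.6% and 37.6% (27.8 to 48.3) of lymphocytes. In ASPC nuclei it was found in 4.74% and 28.2%, and in myeloid nuclei in 5.73% and 32.2%. Without thinning the adipocyte shares were 41.9% and 89.1% and the lymphocyte shares 13.2% and 60.4%, and the median adipocyte nucleus held 3651.5 UMIs in the former library and 7854 in the latter. In the KO-labelled library the interval of the lymphocyte share reaches that of adipocytes, so the share by itself does not set adipocytes apart from free RNA there.

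The adipocytes of the KO-labelled library were not uniform in Cfd. The adipocyte nuclei of the WT-labelled library were all in a cluster led by Grin2b, Gm3289 and Rasd1, and 890 of the 895 of the KO-labelled library in a cluster led by Mageb18, Gm42906 and Fgf14. By the finer division, 576 of these, led by Nnat, Erbb4 and BB365896, had 1257 CPM of Cfd and 271 CPM of C4b, and 60.1% (56.0 to 64.1) of them held Cfd at 1000 UMIs. The other 314, led by Mageb18, Serpina1b and 1700047G03Rik, had 184 CPM of Cfd and 149 CPM of C4b, and 18.2% held Cfd. The Mageb18 cluster was thus under the lymphocyte level of 461 CPM in its library, and its interval (171 to 197) overlapped that of the adipocytes of the WT-labelled library (195 to 237). On the CPM scale, then, the Nnat cluster alone of these stood above the lymphocyte level. Per nucleus, the Mageb18 cluster held 2.59 Cfd UMIs and the Nnat cluster 9.22, against 0.981 in lymphocytes, 1.04 in ASPC nuclei and 1.06 in myeloid nuclei of the same library, so on that scale both adipocyte clusters stood above them.

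**Figure D4:**
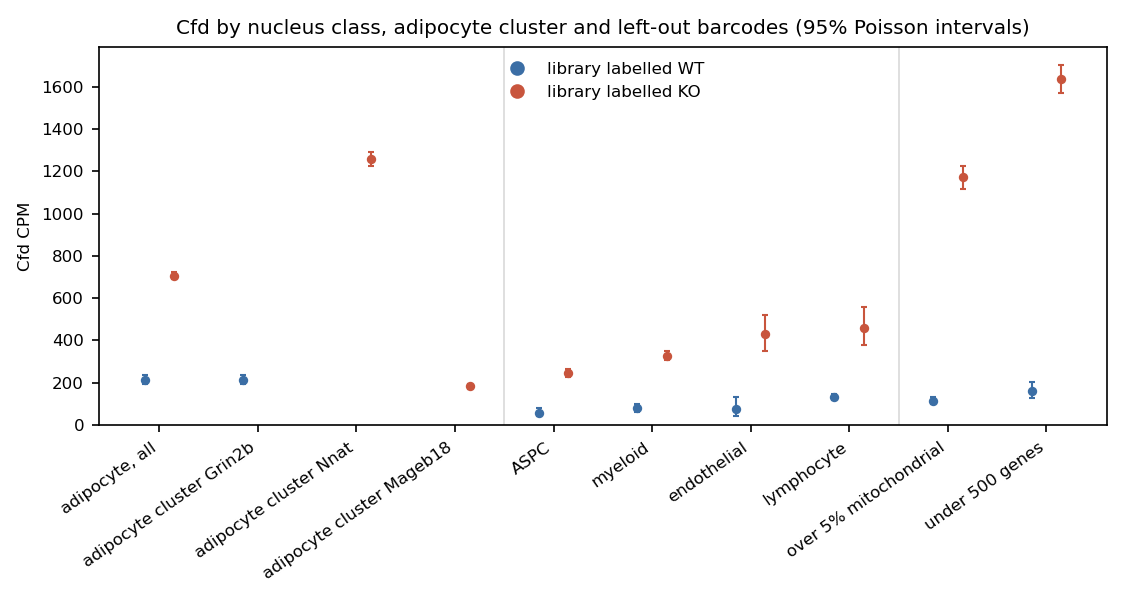
Level of Cfd in CPM on a linear axis, by class, by adipocyte cluster and in the barcodes left out by the filters, for both libraries, with exact Poisson 95% intervals. The Nnat cluster of the KO-labelled library stands at 1257 CPM, the Mageb18 cluster at 184 CPM, and the left-out barcodes under 500 genes of the same library at 1637 CPM.

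The ratios of the 9 genes were set beside those of all genes, as a description. Of 9228 genes with at least 50 summed UMIs in ASPC nuclei, 25.4% were at or above 2 in ratio and 8.6% at or below 0.5. Of the 9 members there, 2 (C7, and Cfd at its background level) were at or above 2 and 1 (C1qc, at its background level) at or below 0.5. Their median log2 ratio was 0.10 against 0.15 for all genes. In adipocytes 8 members had enough counts, of which C4b and Cfd alone stood above background, so the median below mostly describes background. C2 (which did not clear the lymphocyte interval) and Cfd were at or above 2, against 25.6% of 11398 genes. C1qb and C1qc were at or below 0.5, against 17.6%, and the median log2 ratio was -0.60 against -0.01. In myeloid nuclei 7 members had enough counts. Cfd alone, at its background level, was at or above 2, against 24.6% of 8764 genes. C3 alone was at or below 0.5, against 13.1%, and the median log2 ratio was 0.57 against 0.10. Cfd was at or above 2 in endothelial nuclei (32.1% of genes) and in lymphocytes (16.4%) as well, and C3 was at or below 0.5 in endothelial nuclei (16.3%).

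These background shares moved with the scaling. Of the ASPC genes past 2-fold in either direction, 74.7% were higher in the KO-labelled library by plain totals, 80.3% with TMM factors and 55.7% with mitochondrial genes and Malat1 left out of the totals. In adipocytes the shares were 59.2%, 76.2% and 45.0%, in myeloid nuclei 65.3%, 73.8% and 49.0%, in endothelial nuclei 66.3%, 76.4% and 60%, and in lymphocytes 44.4%, 31.1% and 38.6%. The median of all genes shifted by 0.29 on the log2 scale with TMM in adipocytes, by 0.10 in ASPC and by 0.15 in myeloid nuclei, and by -0.27, -0.25 and -0.27 in ASPC, adipocyte and myeloid nuclei without mitochondrial genes and Malat1. Relative to the median of all genes with plain totals, C7 in ASPC nuclei and Cfd in adipocytes remained above 2-fold and Serping1 in ASPC nuclei remained within it.

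**Figure D5:**
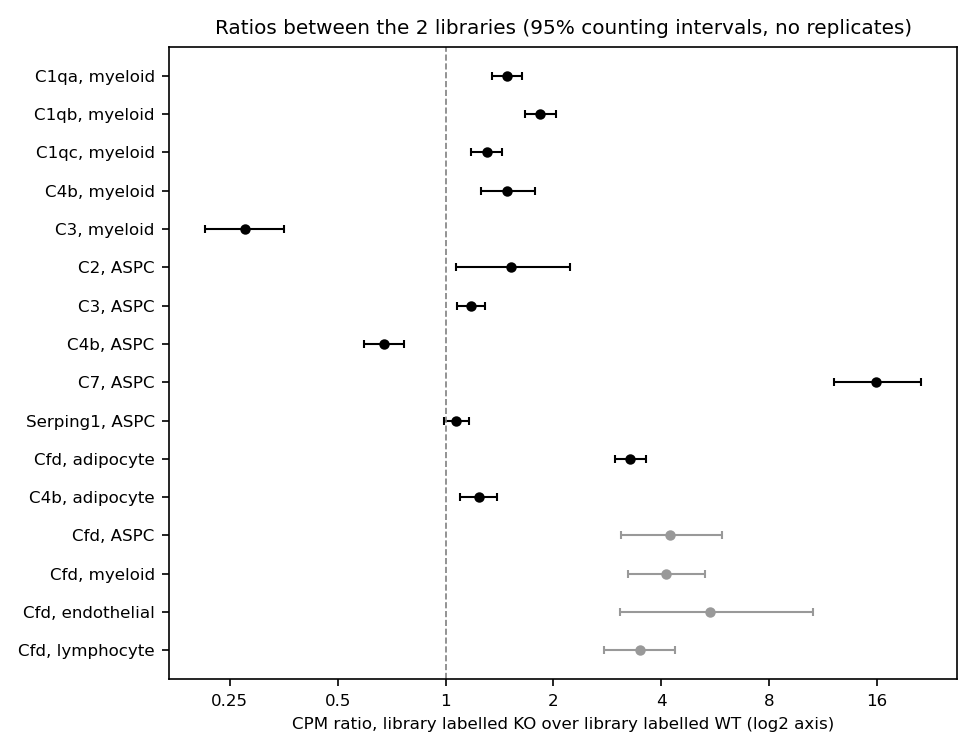
Ratio of the KO-labelled library over the WT-labelled library for 16 pairs of gene and class, on a log2 axis with exact conditional 95% intervals. Grey points are Cfd outside adipocytes, where its level was at or below that of lymphocytes. C7 in ASPC nuclei lies farthest to the right at 15.9, the Cfd points lie between 3.28 and 5.47, and C3 in myeloid nuclei lies farthest to the left at 0.275. The ratio of C3 in ASPC nuclei, drawn at 1.18, was 0.980 with mitochondrial genes and Malat1 left out.

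The rest of the cascade was read from a list of 50 other complement genes, of which 49 were in the matrices and 27 had at least 50 UMIs in a class. In ASPC nuclei 14 had at least 50 UMIs over both libraries, of which 3 were at or above 2 and 3 at or below 0.5, with a median log2 ratio of -0.33. Adipocytes had 20, of which 4 were at or above 2 and 6 at or below 0.5. Myeloid nuclei had 21, of which 6 were at or above 2 and 6 at or below 0.5. These counts lie beside the shares of all genes given above, and no direction of the list as a whole is read from them.

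Among the initiating enzymes, C1s1, which encodes the C1s protease that Serping1 inhibits, was stromal like Serping1, with 631 CPM in ASPC nuclei of the WT-labelled library and 506 CPM in those of the KO-labelled library, a ratio of 0.802 (0.723 to 0.891). C1ra, which encodes C1r, had 249.7 and 224 CPM there, a ratio of 0.898 that was within counting error. Cfb, which encodes the substrate of factor D, had 49.9 and 35.6 CPM in ASPC nuclei, a ratio of 0.713 (0.487 to 1.07), within counting error as well. Colec12, a scavenger receptor of the collectin family, was higher in the KO-labelled library in ASPC, adipocyte and myeloid nuclei, by 5.05, 4.68 and 7.82 times. Cfp, which encodes properdin, the stabiliser of the alternative convertase, was highest in myeloid nuclei, at 145 and 214 CPM, a ratio of 1.48 (1.22 to 1.81).

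Of the terminal components, C6 alone passed the count minimum, and it was not a stromal gene like C7. It stood at 10.1 and 57.9 CPM in adipocytes, a ratio of 5.76 (3.69 to 9.51), at 19.1 and 57.7 CPM in myeloid nuclei, a ratio of 3.03 (1.83 to 5.33), and at 8.32 and 2.71 CPM (6 and 9 UMIs) in ASPC nuclei. Among regulators and receptors, ratios lay on both sides of 1. The 3 anaphylatoxin receptors were higher in myeloid nuclei of the KO-labelled library, C5ar1 at 67.3 and 378 CPM (ratio 5.62), C5ar2 at 16.8 and 30.2 CPM (ratio 1.79, interval 1.03 to 3.36) and C3ar1 at 85.2 and 121 CPM (ratio 1.42). Vsig4, a macrophage receptor for C3 fragments, had 5 UMIs in the WT-labelled library and 290 in the KO-labelled library, a ratio of 19.5 (8.27 to 60.6). Cd55, which encodes decay-accelerating factor, was lower in myeloid nuclei (0.108) and in adipocytes (0.374) and within counting error in ASPC nuclei (1.05). Its myeloid and adipocyte levels, 115 and 96.6 CPM in the WT-labelled library and 12.4 and 36.1 CPM in the KO-labelled library, lay below those of lymphocytes, 580.2 and 226 CPM, where Cd55 was lower too (0.390), and the B, T and NK cell markers went the same way in myeloid nuclei, as given above. Their part in the Cd55 ratios was not tested. Clu, which encodes clusterin, an inhibitor of the terminal complex, was lower in the KO-labelled library in all 5 classes, and in lymphocytes 210 UMIs of the WT-labelled library stood against 0. In the WT-labelled library Clu had 48.5 CPM in ASPC and 43.3 CPM in adipocyte nuclei, below the 88.3 CPM of lymphocytes. Myeloid nuclei had 111 CPM (99 UMIs) and endothelial nuclei 554 CPM (92 UMIs). The part of free RNA in the Clu ratios was not tested. Cr2, a receptor of B cells, was lower in ASPC, adipocyte and myeloid nuclei (0.224, 0.265 and 0.0495), and the summed level of the 9 B cell markers in ASPC nuclei went the same way, from 655 to 38.0 CPM.

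Across the 15 sums of class and library, the C1q genes had nearly the same pattern, with Pearson correlations of log2(CPM + 1) between 0.963 and 0.983 for the 3 pairs. C7 and Serping1 had 0.833, C3 and Serping1 0.817, and C1qa and Serping1 -0.40. These points share libraries, depth and free RNA, and the correlations are descriptions. Of 7576 other genes with at least 500 UMIs, the closest to C1qa were Lyz2 (0.978) and Folr2 (0.964), to C1qb Lyz2 (0.991) and Ccl6 (0.971), and to C1qc Lyz2 (0.982) and Ccl6 (0.978). Lyz2 is one of the macrophage markers used to name the classes. The closest to C3 were Pdgfra (0.937) and Gpm6b (0.911), to Serping1 C1s1 (0.959) and Bgn (0.936), and to C7 Lama2 (0.895) and Ppp2r2b (0.894), Pdgfra and Lama2 being stromal markers. The closest to Cfd were Hp (0.972) and Lnx2 (0.963), to C2 Dpysl3 (0.856) and Apod (0.844), and to C4b Phlda1 (0.864) and Nupr1 (0.833). For each of the 9 genes, at least 1 of the 2 changed when ranks were used instead.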

How the data were processed

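Single-nucleus RNA-seq (10x Genomics, 3′ kit) was run on iWAT nuclei, 1 library per genotype. The authors made the deposited UMI counts per gene and barcode with Cell Ranger 6.1.1 per the file headers, and the submitters' processing notes name mm10 and Seurat 4. Whether intronic reads were counted and whether free RNA was removed are not given in the sources used here. In total, 9376351 UMIs were deposited for the WT-labelled library and 19655049 for the KO-labelled library.

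Barcodes with at least 500 genes and at most 5% mitochondrial UMIs were kept (3649 and 2944). Scrublet (scanpy 1.11.5) called 92 doublets in the KO-labelled library by its own threshold but 0 in the WT-labelled library, where the 4% with the highest scores (146) were removed instead. The merged counts were clustered in Seurat 5.3.0 (R 4.3.3) with 2000 variable genes, complement genes left out, 20 principal components, 20 neighbours and a resolution of 0.5 (1.0 for the finer division). A marker counted for a cluster if 5% or more of the nuclei held it at 2 times or more the mean CPM elsewhere, and a name took 3 such markers and a lead of 3.

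Counts were summed per class and library. Levels carry exact Poisson intervals, shares Clopper-Pearson intervals and ratios conditional binomial intervals (scipy 1.17.1). A level was above background when its interval lay above that of lymphocytes. Ratios over all genes needed at least 50 UMIs over both libraries, and members are described beside the share of genes past 2-fold. Depth sets the precision, and classes of the WT-labelled library carry fewer UMIs (720924 against 3315667 in ASPC, 892082 against 2650955 in myeloid nuclei).

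All 9 members were named, with those of the other complement genes that had at least 50 UMIs in a class and, for each member, the 2 genes with at least 500 UMIs of the most similar pattern. The counts over the list of other complement genes include 1 gene that is not reported here. The members and lists were chosen with earlier results of these data known. The scoring rule for names, the class in which each member's ratio was followed, and comparisons within shared clusters were settled after levels or markers had been seen. Interval code was tested on simulated data. The alternatives tried are given in the closing section.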

Additional observations from a re-analysis of the deposited data

Results flagged for a closer look

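The ratio of C4b lay on opposite sides of 1 in different classes. Its ratio of the KO-labelled library over the WT-labelled library was 0.673 in ASPC nuclei, 1.24 in adipocytes and 1.49 in myeloid nuclei. The adipocyte ratio was 1.04, within counting error, with mitochondrial genes and Malat1 left out of the totals, and the myeloid ratio was 1.20 (0.994 to 1.46), also within counting error, with nuclei classed by their own marker UMIs. Each of the higher calls is thus lost under an alternative. The difference between classes was not tested, since each class has 1 library per genotype. The 29 ASPC nuclei of the KO-labelled library that fell in the same cluster as most of those of the WT-labelled library had a ratio of 2.93.

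Cfd was high in barcodes that the filters left out. Barcodes under 500 genes of the KO-labelled library had 1637 CPM of Cfd (2372 UMIs in 1448 barcodes) and those over 5% mitochondrial UMIs had 1171 CPM (1850 UMIs in 608 barcodes), above every class of that library, the highest of which was 707 CPM in adipocytes. In the WT-labelled library the left-out barcodes had 162 and 115 CPM, below the 215 CPM of adipocytes. What to list here was settled after the levels were known.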

How the results depend on the processing

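Each ratio below is that of the KO-labelled library over the WT-labelled library. With nuclei classed by their own marker UMIs, C1qa in myeloid nuclei was 1.11, C1qb 1.39 and C1qc 0.9505, and in ASPC nuclei C3 was 1.31, C4b 0.771, C7 22.6 and Serping1 1.40. With at least 1000 genes per nucleus, C1qa was 1.74, C1qb 2.17, C1qc 1.61 and Cfd in adipocytes 3.72. With doublets kept, C1qc was 1.18 and Serping1 1.16. With TMM factors, C1qa was 1.64 and Cfd 4.02. With mitochondrial genes and Malat1 out of the totals, C1qa was 1.23, C1qb 1.53, C1qc 1.08, C3 0.980, C4b 0.559, Cfd 2.76 and Serping1 0.890. After correction for intronic length, C1qa was 2.44, C1qb 2.55, C1qc 2.14, C4b 0.821, C7 10.6, Cfd 6.23 and Serping1 1.31. Chosen after seeing the data, joining the unnamed Neil3 cluster to myeloid nuclei gave 1.70, 2.06 and 1.46 for C1qa, C1qb and C1qc, and joining the unnamed Pcdh15 cluster to ASPC gave 0.936 for C3, 0.584 for C4b and 1.25 for Serping1. Leaving out the 4 ASPC nuclei of the WT-labelled library in the Ccbe1 cluster gave 25.1 for C7 and 1.39 for Serping1. Where C1qc and C3 reversed, the cause was not tested, except that the joined Pcdh15 cluster has a high C3 level. C2 in ASPC nuclei moved under no alternative by more than its interval. Its higher call was lost, however, without mitochondrial genes and Malat1 in the totals. Its ratio after correction for intronic length (1.35) is unsure, since the intronic length used was longer than the gene span. Over all alternatives of these 9 ratios, 57 values stayed within the counting interval of the value reported, 34 moved outside it in the same direction or without a call and 3 reversed.

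The number of genes past 2-fold depends on the count minimum. In ASPC nuclei 2341 genes were at or above 2 (1231 with a minimum of 200 UMIs) and 794 at or below 0.5 (1361 with a minimum of 20, 181 with 200, 1493 without mitochondrial genes and Malat1). In adipocytes 2011 were at or below 0.5 (841 with 200, 1108 with TMM). In myeloid nuclei 2152 were at or above 2 (1216 with 200) and 1146 at or below 0.5 (1835 with 20, 298 with 200, 1805 without mitochondrial genes and Malat1). No paired analysis was possible because each genotype has 1 library, and for the same reason no replicate could be left out. Depth limits the ratios in the WT-labelled library, where C2 rests on 36 and C7 on 53 UMIs in ASPC nuclei.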
